A study of Mus musculus with 53 samples.

Results

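The genes described here are 45 cell cycle and DNA replication genes, taken by name from a list of cyclins, kinases, replication factors and mitotic proteins. All 45 were among the 11647 genes of the table for bulk RNA and among the 23235 genes of the table for single cells. By role they were 4 genes of the G1 cyclins and their kinase, 5 regulators of the step into S phase, 9 factors of origin licensing, 4 of DNA synthesis, 7 kinases and cyclins of mitotic entry, 11 of chromatin, spindle and cytokinesis, and 5 of the spindle checkpoint and the ubiquitin ligase that ends mitosis. For the comparison of phases, 17 of them were taken as S-phase genes and 22 as mitotic genes, while the D-type cyclins, Cdk4, Cdk2 and Wee1 belonged to neither list.

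A dividing cell first builds D- and E-type cyclins, whose kinases release the E2F factors that switch on replication genes. MCM helicases are then loaded on replication origins by Cdc6 and Cdt1, and PCNA and the enzymes of nucleotide supply serve the copying of DNA. Cyclin B with Cdk1, the Aurora and Polo kinases and the kinesins later drive mitosis, and many of their genes are transcribed late in the cycle through a short promoter element called the CHR. Mouse embryonic stem cells pass through a short G1 phase and spend much of their cycle in S phase.

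The samples were mouse embryonic stem cells of the R1 line, grown in serum and LIF without feeder cells. RNA was sequenced from cells with both Tbx3 alleles targeted (N/N, also labelled as null), with 1 allele targeted (+/N), with intact Tbx3 (+/+), from wild-type cells with a hairpin against Tbx3 (shTbx3) and from wild-type cells with a hairpin against luciferase (shLuc). Tbx3 is a T-box transcription factor, and the question was what its loss does to these cells. Another 45 libraries were single wild-type cells sorted for the surface antigen SSEA1 and for exclusion of the dye DAPI, with 1 pool of such cells. Sites bound by a biotin-tagged Tbx3 were listed from 1 pull-down in N/N cells that carried the BirA ligase and the tagged protein. Each bulk group is 1 library, so no difference between groups has a replicate check and none has a p-value. The sources used here do not give the number of clones, the passage or the time after the hairpin.

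Tbx3 itself stood at 15.1 FPKM in N/N cells and 22.5 FPKM in +/N cells, against 44.4 FPKM in +/+ cells. It stood at 5.09 FPKM in shTbx3 cells, against 13.8 FPKM in shLuc cells. FPKM counts fragments per kilobase of transcript, scaled to the mapped fragments of the library. The gene thus had less RNA in the cells labelled as lacking or depleted of it, although RNA was still counted in N/N cells, and the sources used here do not say which part of the gene is removed. Of 9 stem cell markers 8 were in the bulk table and none of these was at 0 in any library, with sums of 2576, 2563, 2725, 3945 and 3692 FPKM in N/N, +/N, +/+, shTbx3 and shLuc cells. Markers of other cell types also differed between libraries. Fibroblast markers (7 of 8 in the table) summed to 119.7 FPKM in N/N and 115.0 in +/N cells, against 46.4 in +/+ cells, and to 18.1 FPKM in shTbx3, against 8.20 in shLuc cells, where 2 of them were at 0. Extraembryonic endoderm markers (6 of 8) summed to 9.65, 19.3 and 69.3 FPKM in N/N, +/N and +/+ cells and to 22.3 FPKM in shTbx3, against 19.7 in shLuc cells. Trophectoderm markers (4 of 6) summed to 65.4, 44.0 and 46.8 FPKM in N/N, +/N and +/+ cells. In shTbx3 cells they summed to 339.9 FPKM, against 41.7 in shLuc cells. Most of this was the keratins Krt8 (167 FPKM in shTbx3, against 10.3 in shLuc cells) and Krt18 (140, against 13.4). Tfap2c had 26.1 FPKM, against 17.5, and Hand1 6.24, against 0.414, while Cdx2 and Elf5 were not in the table. Primitive streak markers (4 of 6) summed to 70.9 FPKM in shTbx3, against 2.33 in shLuc cells. B cell and antigen presentation markers (5 of 6) summed to 6.71 FPKM, against 86.4 in shLuc cells. The part of these cell type markers in the differences described next was not tested. In bulk RNA, fewer cells in a phase and less RNA per cell in that phase cannot be told apart.

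The 45 genes were well expressed in every bulk library. Together they summed to 3075 FPKM in N/N, 2802 in +/N, 3124 in +/+, 4172 in shTbx3 and 3555 in shLuc cells. That was 0.870%, 0.851%, 0.910%, 1.07% and 1.04% of all FPKM in these libraries. Only Ccnd2 and Ccne2 lay below 7 FPKM in all 5 libraries. The level of a member ranged little: the highest over the lowest library was 1.12-fold for Bub1b, which encodes the checkpoint kinase BubR1, and 5.37-fold for Ccnd2. For 7 members (Ccnb1, Ccnd3, Cdc20, Cdc6, Mcm7, Pcna and Plk1) the genome held another stretch that matched at least 50% of the transcript at 90% identity or more, so reads of 26 bases could be shared with it and these values are less certain.

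**Figure D1:**
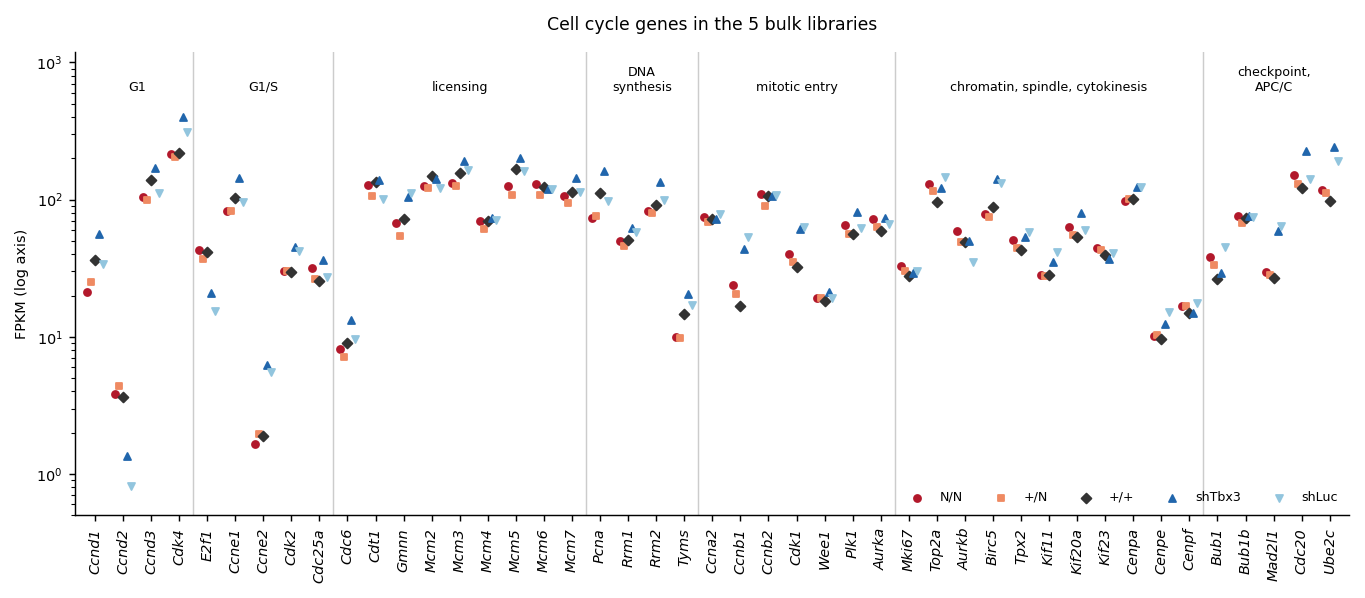
FPKM (log axis) of each of the 45 members in the 5 bulk libraries, 1 point per library, ordered by role from G1 to the end of mitosis. The points of most members lie within a factor of 2 of each other, and Ccnd2, Ccnb1, Ccne2 and E2f1 spread the widest between the targeted-allele set and the hairpin set.

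No member differed 2-fold between cells with both Tbx3 alleles targeted and their control. In N/N against +/+ cells 0 of 45 members differed at least 2-fold on the log2(FPKM + 1) scale, where 3.28% of 11478 genes did. At 1.5-fold, 2 members differed (Ccnd1 and Pcna, both lower in N/N), where 11.9% of genes did. The direction split by phase: 14 of 17 S-phase genes were lower in N/N cells and 19 of 22 mitotic genes were higher, where 54% of all genes were lower and 46% higher. With the median of genes at 5 FPKM and above set to 0, the counts were 13 and 20. The median log2 difference was -0.13 for S-phase genes, 0.21 for mitotic genes, 0.04 for all members and -0.03 for all genes. These lists were described with counts and medians, without a test.

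Among the G1 genes, Ccnd1, the D-type cyclin that responds to growth signals, had 21.2 FPKM in N/N and 25.3 in +/N cells, against 36.3 in +/+ cells. In the hairpin pair Ccnd1 had 56.05 FPKM in shTbx3 cells, against 33.7 in shLuc cells. It was the lowest member of N/N over +/+ (log2 difference -0.75) and among the highest of shTbx3 over shLuc (0.72). The pair of alterations that lower Tbx3 thus stood on opposite sides of their controls for this gene. Ccnd3, another D-type cyclin, had 105 FPKM in N/N and 99.2 in +/N cells, against 139 in +/+ cells, and 171 FPKM in shTbx3, against 112 in shLuc cells. It followed the same order as Ccnd1, with log2 differences of -0.40 in N/N and 0.60 in shTbx3. Ccnd2 was the least expressed of the D-type cyclins, at 3.83, 4.41 and 3.65 FPKM in N/N, +/N and +/+ cells and 1.35 and 0.821 FPKM in shTbx3 and shLuc cells. Cdk4, the kinase partner of these cyclins, had 215, 205 and 220 FPKM in N/N, +/N and +/+ cells, which are close together, and 397 FPKM in shTbx3, against 309 in shLuc cells.

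The regulators of the step into S phase varied less among the targeted-allele libraries. Ccne1, cyclin E1, had 82.97 FPKM in N/N and 82.999 in +/N cells, against 103.6 in +/+ cells, and 144 FPKM in shTbx3, against 96.1 in shLuc cells. Its log2 differences were -0.32 in N/N and 0.57 in shTbx3. Ccne2, cyclin E2, was low at 1.65, 1.96 and 1.90 FPKM in N/N, +/N and +/+ cells and stood at 6.23 and 5.56 FPKM in shTbx3 and shLuc cells. Cdc25a, the phosphatase that activates Cdk2, was the highest S-phase gene of N/N over +/+ (log2 difference 0.30), with 31.5 FPKM in N/N and 26.5 in +/N cells, against 25.4 in +/+ cells. Cdc25a had 36.1 FPKM in shTbx3, against 27.4 in shLuc cells. Cdk2 lay between 29.6 and 30.3 FPKM in the targeted-allele set and had 45.4 FPKM in shTbx3, against 42.1 in shLuc cells. E2f1, an activator of replication genes, had 42.7, 37.2 and 41.6 FPKM in N/N, +/N and +/+ cells and 20.99 and 15.5 FPKM in shTbx3 and shLuc cells.

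Of the 9 licensing genes, 8 were lower in N/N than in +/+ cells (7 when centred), with a median log2 difference of -0.10, and all 9 were lower in +/N cells, with a median of -0.32. Mcm5, a subunit of the MCM helicase, differed most, with 125 FPKM in N/N and 108 in +/N cells, against 166 in +/+ cells. Mcm5 had 201 FPKM in shTbx3, against 161 in shLuc cells. Its log2 differences were -0.41 in N/N, -0.61 in +/N and 0.31 in shTbx3, and -0.61 was the only member value of +/N over +/+ past 1.5-fold, where 7.36% of genes were. The subunits of this 1 complex were not equal: the log2 difference in N/N was -0.24 for Mcm2, -0.23 for Mcm3, -0.01 for Mcm4, 0.07 for Mcm6 and -0.09 for Mcm7. Mcm6 was the exception among the licensing genes, with 130.4 FPKM in N/N cells, against 124 in +/+ cells. Cdt1, which loads the helicase, had 129 FPKM in N/N and 107 in +/N cells, against 135 in +/+ cells, and Gmnn, whose product geminin restrains Cdt1, had 67.04 FPKM in N/N and 54.2 in +/N cells, against 71.96 in +/+ cells. In the hairpin pair the licensing genes lay on the other side, 8 of 9 higher in shTbx3 (6 when centred) with a median of 0.23, and Gmnn was the exception (104 FPKM in shTbx3, 112 in shLuc cells).

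The 4 genes of DNA synthesis were all lower in N/N cells, with a median log2 difference of -0.32, and all higher in shTbx3 cells (3 when centred), with a median of 0.34. Pcna, the sliding clamp of the replication fork, had 73.6 FPKM in N/N and 75.4 in +/N cells, against 111 in +/+ cells. In the hairpin pair Pcna had 162 FPKM in shTbx3, against 97.9 in shLuc cells, and its log2 differences were -0.59, -0.56 and 0.72 in N/N, +/N and shTbx3. The value in shTbx3 was the highest of any member in that pair. Tyms, thymidylate synthase, had 9.94 FPKM in N/N and 9.82 in +/N cells, against 14.5 in +/+ cells, and 20.7 FPKM in shTbx3, against 17.2 in shLuc cells. Rrm1 and Rrm2, the subunits of ribonucleotide reductase, differed by -0.04 and -0.14 in N/N and by 0.11 and 0.42 in shTbx3 on the log2 scale.

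All 7 genes of mitotic entry were higher in N/N cells, with a median log2 difference of 0.20. Ccnb1, cyclin B1, had 23.7 FPKM in N/N and 20.3 in +/N cells, against 16.9 in +/+ cells. In the hairpin pair Ccnb1 had 43.8 FPKM in shTbx3, against 53.6 in shLuc cells. It was higher with targeted alleles (0.47 in N/N, 0.26 in +/N) and lower with the hairpin (-0.28), the reverse of Pcna, although 4 near-identical copies of its transcript make its value less certain. Cdk1, its kinase partner, had 40.1 FPKM in N/N and 35.3 in +/N cells, against 32.1 in +/+ cells, and 60.9 FPKM in shTbx3, against 62.8 in shLuc cells. Ccnb2, cyclin B2, had 109 FPKM in N/N and 90.1 in +/N cells, against 106 in +/+ cells, so here +/N was the low library. The kinases Plk1 and Aurka, which build the spindle poles, differed by 0.20 and 0.27 in N/N and by 0.38 and 0.14 in shTbx3. Wee1, the kinase that holds Cdk1 inactive, lay between 18.3 and 21.3 FPKM in all 5 libraries.

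Among 11 genes of chromatin, spindle and cytokinesis, 8 were higher in N/N cells (9 when centred, median 0.17). Top2a, the topoisomerase that untangles sister chromatids, had 130.1 FPKM in N/N and 116 in +/N cells, against 96.3 in +/+ cells, and 123 FPKM in shTbx3, against 147 in shLuc cells. Its log2 differences were 0.43, 0.27 and -0.26 in N/N, +/N and shTbx3. Birc5, survivin, was the lowest mitotic gene of N/N over +/+ (log2 difference -0.17), with 78.4 FPKM in N/N, against 88.5 in +/+ cells, while Cenpa, the centromeric histone, and Kif11, a kinesin of the spindle, differed by -0.06 and -0.01. Aurkb, the kinase of the same complex as survivin, had 59.1 FPKM in N/N and 48.7 in +/N cells, against 49.2 in +/+ cells, and 49.8 FPKM in shTbx3, against 35.4 in shLuc cells. The centromere motor Cenpe and Kif11 were among the 5 lowest members of shTbx3 over shLuc, at -0.27 and -0.24.

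The 5 genes of the checkpoint and its ligase were all higher in N/N cells (median 0.28). Bub1, a kinase that holds anaphase until chromosomes are attached, was the highest member of N/N over +/+ and of +/N over +/+, with 38.3 FPKM in N/N and 33.2 in +/N cells, against 26.6 in +/+ cells. In the hairpin pair it was the lowest, with 29.2 FPKM in shTbx3, against 44.996 in shLuc cells. The log2 differences were 0.51, 0.31 and -0.61. Cdc20, the activator of the anaphase-promoting ligase, had 152 FPKM in N/N and 131 in +/N cells, against 122 in +/+ cells, and 225 FPKM in shTbx3, against 142 in shLuc cells. It was higher in both settings (0.31 and 0.66). Ube2c, the ubiquitin-conjugating enzyme of that ligase, had 118 FPKM in N/N and 111 in +/N cells, against 96.9 in +/+ cells, and 239.95 FPKM in shTbx3, against 191 in shLuc cells.

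Cells with 1 targeted allele showed the split of phases as well. In +/N against +/+ cells 0 of 45 members passed 2-fold, where 1.91% of 11459 genes did, and 15 of 17 S-phase genes were lower and 15 of 22 mitotic genes higher, where 65% of genes were lower and 35% higher. Genes at 5 FPKM and above, on which values were centred, were shifted by -0.12 here, and when centred 15 S-phase genes were lower and 20 mitotic genes higher. The medians as deposited were -0.31 and 0.07, against -0.03 for all members and -0.10 for all genes. N/N and +/N were set against the same +/+ library, so these comparisons are not separate. In N/N against +/N cells, 0 members passed 2-fold (0.625% of 11362 genes) and 0 passed 1.5-fold (1.78%). S-phase and mitotic genes did not part there: their medians were both 0.16, against 0.07 for all genes, and 38 of 45 members were higher in N/N cells where 68.1% of genes were (10 of 17 S-phase and 14 of 22 mitotic genes when centred). Gmnn (log2 difference 0.30), Ccnb2 (0.28), Aurkb and Cdt1 (0.27 each) and Mcm6 (0.26) were the highest, and Ccnd1 (-0.24), Ccnd2 (-0.16), Ccne2 (-0.16), Cenpa (-0.04) and Pcna (-0.03) the lowest. S-phase genes minus mitotic genes was -0.34 in N/N over +/+, -0.38 in +/N over +/+ and 0.004 in N/N over +/N, as a difference of median log2 values. The summed level of the 17 S-phase genes was 1270, 1148 and 1437 FPKM in N/N, +/N and +/+ cells, and that of the 22 mitotic genes 1409, 1272 and 1240 FPKM.

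The hairpin pair showed the opposite order. In shTbx3 against shLuc cells 0 of 45 members passed 2-fold, where 3.8% of 11342 genes did, and 5 passed 1.5-fold (Pcna, Ccnd1, Cdc20 and Ccnd3 higher, Bub1 lower), where 16.5% of genes did. S-phase genes were higher in 16 of 17 cases with a median of 0.31, and mitotic genes were higher in 9 and lower in 13 of 22 cases with a median of -0.04, where 64.5% of genes were higher and the median was 0.14. Genes at 5 FPKM and above were shifted by 0.16, and relative to that shift 12 of 17 S-phase genes lay above and 17 of 22 mitotic genes below it, with medians of 0.16 and -0.20. The difference of the medians was 0.36, which centring cannot change. All 4 G1 genes and all 5 regulators of the step into S phase were higher in shTbx3 cells (4 and 3 when centred). The summed level was 1714 FPKM in shTbx3, against 1389 in shLuc cells, for S-phase genes, and 1766 FPKM, against 1649 in shLuc cells, for mitotic genes. Taken gene by gene, 13 of 17 S-phase genes lay below their control in N/N and above it in shTbx3 cells, as did 36.5% of all 11182 genes past the filter in both comparisons. Of 22 mitotic genes, 12 lay above their control in N/N and below it in shTbx3 cells, as did 18.1% of all genes. When centred, the counts were 10 of 17 and 15 of 22. The shares of all genes were taken without centring, so they are no background for the centred counts. The N/N and hairpin comparisons share no library. Without the 7 members that have a near-identical copy, the difference of S-phase and mitotic medians was -0.29 in N/N, -0.32 in +/N and 0.29 in shTbx3.

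**Figure D2:**
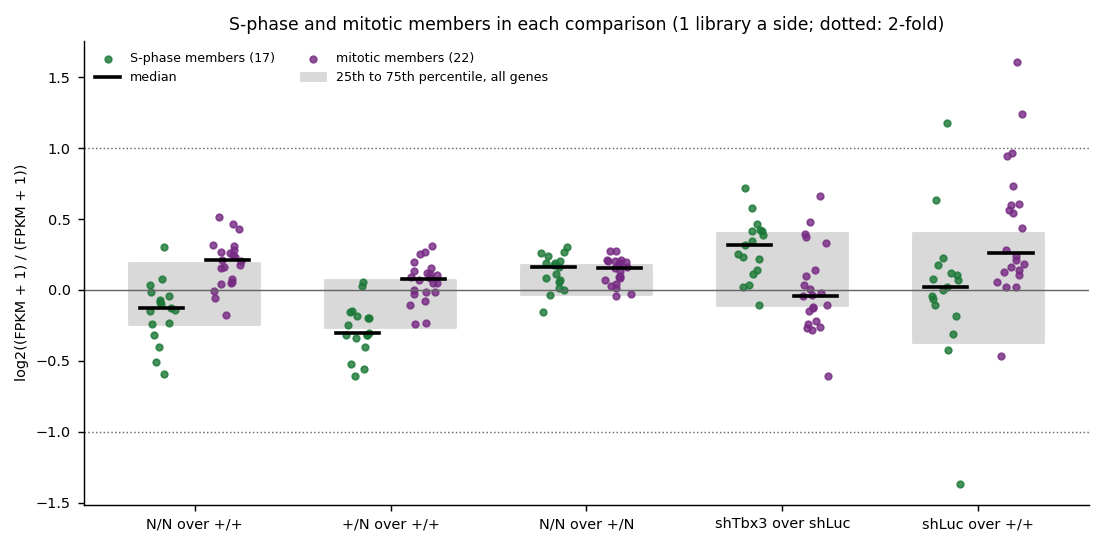
Log2 difference of FPKM + 1 for the 17 S-phase and 22 mitotic members in 5 comparisons of single libraries, 1 point per gene, with the median as a bar and the 25th to 75th percentile of all genes as a grey box. S-phase medians lie below the mitotic ones in N/N and +/N over +/+ (-0.13 against 0.21, -0.31 against 0.07), beside them in N/N over +/N, and above them in shTbx3 over shLuc (0.31 against -0.04).

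The control libraries shLuc and +/+ differed at 2-fold for more genes than either alteration of Tbx3 did from its control, among the members as among all genes. Tbx3 RNA itself was among the differences, with 13.8 FPKM in shLuc, against 44.4 in +/+ cells (log2 difference -1.62), although neither was targeted for Tbx3. In shLuc over +/+ cells 3 members were at least 2-fold higher (Ccnb1, log2 difference 1.61; Mad2l1, 1.24; Ccne2, 1.18), where 5.68% of 11568 genes were, and 2 at least 2-fold lower (E2f1, -1.37; Ccnd2, -1.35), where 5.88% were. In either direction these were 5 of 45 members, against 11.6% of genes, and at 1.5-fold 11 members passed, against 31.2% of genes. Mad2l1, a checkpoint protein, had 59.4 FPKM in shTbx3 and 64.5 in shLuc cells and between 26.7 and 29.8 FPKM in the targeted-allele set. Ube2c (0.97) and Cdk1 (0.95) came next, and Aurkb (-0.46), Cdt1 (-0.42) and Mcm2 (-0.31) followed on the low side. Mitotic genes were higher in shLuc in 21 of 22 cases (19 when centred, median 0.26) and S-phase genes in 9 of 17 (8 when centred, median 0.02, or -0.03 when centred), where 50.8% of genes were higher. A difference of S-phase and mitotic medians of -0.24 therefore also stood between these controls. The hairpin libraries and the targeted-allele libraries may differ in read length, since the labels give lengths of 26 or 100 bases without saying which library had which.

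Other genes of the same pathways gave a weaker form of the split. Of 45 further replication genes, all in the table, 30 were lower in N/N over +/+ (median -0.12), with Gins2 (48.6 FPKM in N/N, against 80.8 in +/+ cells) and Gins3, subunits of the GINS helicase complex, the lowest at -0.72 and -0.55, and Pold1 and Prim1, of DNA polymerase delta and primase, the highest at 0.29 each. Of 50 further mitotic genes 47 were in the table and 38 of them were higher (median 0.13), led by the checkpoint kinase Ttk (0.59) and the phosphatase Cdc25c (0.58), while the transcription factors Mybl2 (-0.34) and Foxm1 (-0.23) were the lowest. In shTbx3 over shLuc, however, these lists barely parted: 24 of 45 replication genes and 23 of 47 mitotic genes were higher, with medians of 0.08 and -0.001 (-0.08 and -0.16 when centred, so the sign for replication genes turns). The extremes there were Chaf1a (0.59), Fen1 (0.46), Pola1 (-0.71) and Rpa3 (-0.60) for replication and Spc24 (0.68), Foxm1 (0.62), Nusap1 (-0.57) and Pttg1 (-0.54) for mitosis. Replication minus mitotic genes in these further lists was -0.25 in N/N, -0.24 in +/N and 0.08 in shTbx3, against 0.18 in shLuc over +/+ cells, where the members had -0.24.

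Among cell cycle inhibitors and RB and E2F family genes, 17 of 19 were in the table and 6 were higher and 11 lower in N/N over +/+ (7 and 10 when centred). Cdkn1a, the inhibitor p21, had 68.2 FPKM in N/N and 59.1 in +/N cells, against 46.1 in +/+ cells, and 46.3 FPKM in shTbx3, against 25.5 in shLuc cells. It was thus the high gene of this list in N/N (0.55) and the second highest in shTbx3 (0.84). Cdkn2a, the locus of p16 and p19Arf, had 19.6 FPKM in N/N and 25.9 in +/N cells, against 38.1 in +/+ cells, and 24.3 FPKM in shTbx3, against 15.9 in shLuc cells. Here the alterations again lay on opposite sides (-0.93 and 0.58). E2f3, an activating E2F, was at -0.80 in N/N, and Rbl1, the RB relative p107, at 0.15 in N/N and -0.73 in shTbx3. Cdkn1c, the imprinted inhibitor p57, was the only gene of the list past 2-fold in shTbx3 over shLuc, with 16.5 FPKM in shTbx3, against 6.33 in shLuc cells (log2 difference 1.26). Tfdp2, a partner of E2F factors, was at -0.57.

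The lists that parted in the bulk libraries also carried different promoter sequence. RefSeq promoter windows (GRCm38.p6, 250 bases before to 50 after the gene start) were found for 35 of the 45 members, 14 of them S-phase and 18 mitotic genes. E2F-type words (TTTGGCGC, TTTGGCGG, TTTCCCGC or TTTCCCGG) were searched on both strands, as were the CHR word TTTGAA and the NF-Y word CCAAT, and none of these lies within another. An E2F-type word lay in 7 of 14 S-phase windows and 1 of 18 mitotic windows, and in 4.71% of the windows of 17492 protein-coding genes. The CHR word lay in 1 of 14 S-phase windows (Mcm2) and 13 of 18 mitotic windows, against 18.5% of all genes, and CCAAT in 9 of 14 and 16 of 18, against 42.3%. For the further lists the E2F-type words lay in 13 of 36 replication genes and 5 of 40 mitotic genes, and the CHR word in 6 and 26. In mitotic members 14 of 17 CHR matches began within 100 bases before the start or later (82.4%, with a median position of -18), against 38.6% of the matches in all genes. A match is a run of letters and not a measured site of binding. Of the windows below, Mcm6 and Mcm3 are shown since each holds 2 E2F-type words, and Cdk1 and Ccnb2 as the kinase of mitotic entry and a cyclin partner of it, each with 2 CHR and 3 CCAAT words. Mki67 and Top2a also hold 2 CHR words and are not printed. They run 5′ to 3′ along the gene, with matches to any of these words in capitals.
Mcm6 promoter, chr1:128359656-128359955, minus strand: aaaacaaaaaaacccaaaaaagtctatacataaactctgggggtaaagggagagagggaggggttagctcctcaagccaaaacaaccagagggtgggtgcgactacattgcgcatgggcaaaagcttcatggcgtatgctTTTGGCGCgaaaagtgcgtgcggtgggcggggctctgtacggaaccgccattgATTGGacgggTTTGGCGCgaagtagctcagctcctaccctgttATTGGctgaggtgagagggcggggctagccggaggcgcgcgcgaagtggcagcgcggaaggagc
Mcm3 promoter, chr1:20820263-20820562, minus strand: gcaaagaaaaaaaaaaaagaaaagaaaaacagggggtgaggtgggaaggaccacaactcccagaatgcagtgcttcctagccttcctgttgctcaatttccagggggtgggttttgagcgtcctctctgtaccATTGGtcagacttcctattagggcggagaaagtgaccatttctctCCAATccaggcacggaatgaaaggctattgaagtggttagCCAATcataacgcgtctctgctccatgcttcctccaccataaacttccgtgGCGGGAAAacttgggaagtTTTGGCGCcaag
Cdk1 promoter, chr10:69352863-69353162, minus strand: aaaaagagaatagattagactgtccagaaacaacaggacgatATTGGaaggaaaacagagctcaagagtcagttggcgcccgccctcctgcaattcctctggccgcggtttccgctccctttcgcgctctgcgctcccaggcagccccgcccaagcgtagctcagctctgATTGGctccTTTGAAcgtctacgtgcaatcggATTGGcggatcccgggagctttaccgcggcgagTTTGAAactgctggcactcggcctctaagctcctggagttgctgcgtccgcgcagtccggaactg
Ccnb2 promoter, chr9:70421505-70421804, minus strand: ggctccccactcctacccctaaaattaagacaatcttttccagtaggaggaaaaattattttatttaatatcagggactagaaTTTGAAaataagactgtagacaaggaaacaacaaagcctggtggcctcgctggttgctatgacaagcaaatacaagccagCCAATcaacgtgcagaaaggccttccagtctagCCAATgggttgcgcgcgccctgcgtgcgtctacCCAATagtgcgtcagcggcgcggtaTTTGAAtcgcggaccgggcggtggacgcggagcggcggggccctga
In these windows the capitals of the Mcm genes hold E2F-type and CCAAT words only, and those of Cdk1 and Ccnb2 hold CHR and CCAAT words only. In N/N over +/+ the log2 differences of these 4 genes were 0.07 for Mcm6, -0.23 for Mcm3, 0.31 for Cdk1 and 0.04 for Ccnb2. A link between promoter words and bulk values was not tested.

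**Figure D3:**
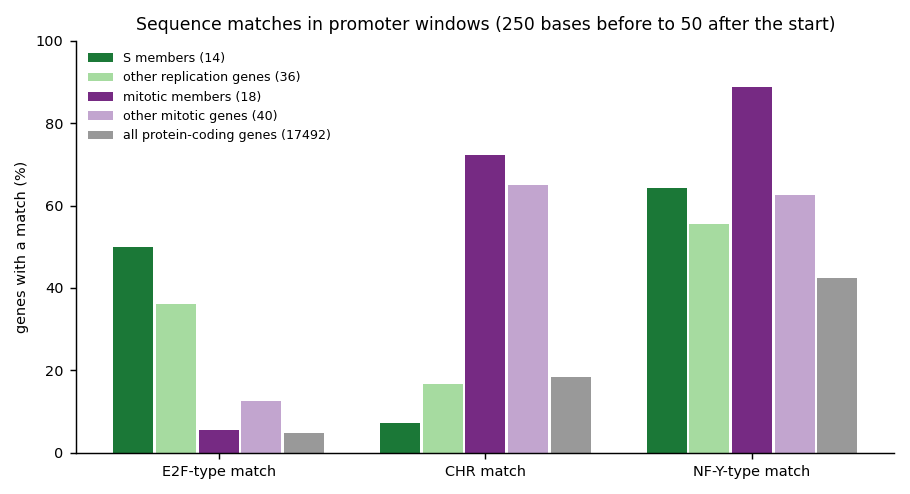
Percentage of genes whose RefSeq promoter window holds an E2F-type, CHR or NF-Y-type word on either strand, for S-phase members (14 windows), further replication genes (36), mitotic members (18), further mitotic genes (40) and all protein-coding genes (17492). E2F-type words stand at 50% in S-phase members and 5.56% in mitotic members, and the CHR word at 7.14% and 72.2%.

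Tbx3 sites lay near these genes about as often as near other genes of the bulk table. The list held 3078 sites, with scores of 50.01 to 791.25 in the authors' file. A site lay within 20 kb of the start of 7 of 45 members (8 sites), where 14.8% of 11166 protein-coding genes of the bulk table and 9.59% of all 22380 had one. Of the 7, Cdc25a and Mcm2 are S-phase genes, Ccna2, Aurka and Bub1 mitotic genes, and Cdk2 and Ccnd3 belong to neither list. At 3 members (Cdc25a, Mcm2 and Ccna2) the site covered the start itself, where 3.67% of the genes of the bulk table and 2.02% of all had a site over their start. All 3 sites had scores in the lower part of the list (61.15, 53.8 and 64.83, against a median of 76.65). The Cdc25a site was at chr9:109777701-109778193 (mm9), its centre 136 bases upstream of the start. That of Mcm2 was at chr6:88848444-88849007, with its centre 48 bases downstream in the 5′ UTR, and that of Ccna2, cyclin A2, at chr3:36470890-36471465, with its centre 105 bases upstream.

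At the other members another gene was often nearer. The strongest site was that of Bub1, with a score of 227.3 (rank 213 of 3078), at chr2:127664665-127665523. It lay 7064 bases upstream of the Bub1 start in an intron of Acoxl, and 53 bases from the start of Acoxl. The Cdk2 site (chr10:128133444-128133893, score 80.31) lay 8214 bases from the Cdk2 start and 120 bases from that of Rab5b, and the Aurka site (chr2:172202482-172203080, score 65.72) lay 6447 bases upstream in an intron of Cstf1. Ccnd3 had one site 838 bases upstream of its start (chr17:47640680-47641162, score 63.53) and another in an intron of its own (chr17:47648008-47648919, score 104.99). Within 5 kb of the start 4 members had a site, within 50 kb 13, and with a score of at least 100 only Bub1 and Ccnd3.

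The T-box core word GGTGTGA was in none of these 8 sites on either strand, over their full length or in the central 300 bases. Of the 300-base windows at the centres of all 3078 sites, 10.0% held it. At that share its absence from 8 sites does not set them apart. The windows at the sites over Cdc25a and Ccna2 are shown because they coincide with the starts of the genes, and that of Bub1 because it has the highest score. The Mcm2 site also covers its start and is not printed, since its centre lies in a UTR. Capitals mark the same E2F-type, CHR and CCAAT words.
Cdc25a site, chr9:109777798-109778097, plus strand: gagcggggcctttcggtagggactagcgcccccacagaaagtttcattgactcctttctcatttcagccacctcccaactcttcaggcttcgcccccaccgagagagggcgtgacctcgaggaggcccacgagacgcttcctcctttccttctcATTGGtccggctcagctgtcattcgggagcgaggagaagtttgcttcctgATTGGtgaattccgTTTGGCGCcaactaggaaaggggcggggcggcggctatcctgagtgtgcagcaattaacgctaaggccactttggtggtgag
Ccna2 site, chr3:36471028-36471327, plus strand: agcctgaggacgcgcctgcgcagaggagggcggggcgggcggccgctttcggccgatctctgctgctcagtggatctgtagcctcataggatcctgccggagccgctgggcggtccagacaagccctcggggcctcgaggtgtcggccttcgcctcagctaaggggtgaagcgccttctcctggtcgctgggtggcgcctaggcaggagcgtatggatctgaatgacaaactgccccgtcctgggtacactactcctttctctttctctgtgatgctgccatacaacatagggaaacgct
Bub1 site, chr2:127664945-127665244, plus strand: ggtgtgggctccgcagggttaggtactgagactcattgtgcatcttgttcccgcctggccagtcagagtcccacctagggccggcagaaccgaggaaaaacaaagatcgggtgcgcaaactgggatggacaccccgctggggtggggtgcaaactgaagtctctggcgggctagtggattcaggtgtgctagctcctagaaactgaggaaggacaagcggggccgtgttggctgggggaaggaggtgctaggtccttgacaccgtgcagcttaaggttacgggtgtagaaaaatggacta
The Cdc25a window holds 1 E2F-type word and 2 CCAAT words. It overlaps the promoter window of the same gene, so these are the same words as in that promoter. The Mcm promoters above also hold both kinds of word. An E2F-type word lay in 2.44% of all site windows and in 4.71% of the promoter windows of all protein-coding genes. The windows of Ccna2 and Bub1 hold none of the words searched. The 7 members with a site did not move together: in N/N over +/+ the log2 differences were 0.30 for Cdc25a, -0.24 for Mcm2, 0.05 for Ccna2, 0.51 for Bub1, 0.27 for Aurka, 0.03 for Cdk2 and -0.40 for Ccnd3, and in shTbx3 over shLuc they were 0.39, 0.22, -0.13, -0.61, 0.14, 0.11 and 0.60 in the same order.

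In the single cells 25 of the 45 members were found in the median cell, counting a gene as found at 1 FPKM or more, with a range of 14 to 37. The cells of the table stand in a first run of 23 columns and a second run of 22. Relative depth, read from the smallest steps between low values, had a median of 1.25 in the first run and 0.647 in the second, and ran from 0.145 to 1.64 over all cells. Members found per cell had medians of 28 and 21.5 in these runs. Of all 23235 genes, a median of 2337 were found per cell, 2446 in the first run and 1973 in the second. The number found was thus lower in the second run for all genes as well. Within a run the number of members found did not rise with relative depth. Its rank correlation (Spearman's rho) with depth was -0.42 in the first run and -0.51 in the second, against 0.10 over all cells. A read is worth less FPKM in a deeper library, so a cut at 1 FPKM is not equally strict in all cells. The same rho for all genes found was not computed, so these values are not particular to the members. Of the stem cell markers, Zfp42 and Dppa5a were found in all 45 cells, Pou5f1 in 11 and Nanog in 12, although Pou5f1 stood at 1370 FPKM in the pool. Fut4, another gene of the stem cell marker list, was listed at 0 in all 45 cells and at 0.391 FPKM in the pool. Gapdh, which every cell uses, was listed at 0 in 28 cells, so a listed 0 does not show that a gene was silent. Of the 34 markers of other cell types most were listed at 0 in all cells, and Tfap2c, which was found in 10 cells, was the most frequent of them.

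Cdk4, Mcm4, Rrm2 and Ube2c were found in the most cells, 43 of 45 each (95.6%, exact binomial 95% interval 84.9% to 99.5%, which covers counting error only). Top2a followed with 41 cells and Gmnn and Pcna with 40 each. Where it was found, Mcm4 had a median of 268 FPKM, Ube2c 185, Cdk4 174 and Rrm2 111. At the other end stood E2f1 and Cdc25a with 1 cell each (2.22%, interval 0.0562% to 11.8%) and Ccnd2 with 5 cells. E2f1 and Cdc25a had 26.9 and 42.7 FPKM in the pool, and Cenpf and Bub1, with 28.6 and 35.6 FPKM there, were found in 20 and 14 cells. Of 4547 genes at 20 FPKM or more in the pool, 5.74% were found in at most 1 cell. Among members at that level these were 2 of 43, so E2f1 and Cdc25a do not set the members apart. Some mitotic genes were unevenly spread over the runs: Plk1 was found in 22 of 23 cells of the first run and 6 of 22 of the second, and Aurkb in 8 and 1. Relative depth differed between the runs as well, and its part in this was not tested.

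The mean over cells and the pool gave different levels for many members. The mean was at least 2-fold above the pool for 7 members, where 13% of 11997 genes were, and at least 2-fold below for 19, where 55.7% were. Gmnn had a mean of 481 FPKM, against 152 in the pool, Mcm4 394, against 107, Mad2l1 228, against 68.6, and Ccnb1 159, against 49.9. On the low side Cdc20 had a mean of 42.5 FPKM, against 262 in the pool, and Ccnd3 had 26.2, against 253. The median log2 difference of mean over pool was -0.72 for the members and -1.18 for all genes. Ccne2 stood furthest above the pool, with a mean of 25.6 FPKM, against 4.18 in the pool (log2 difference 2.36). It was found in 16 cells, with a median of 66.8 FPKM in those cells and 0.0963 FPKM over all cells. The median where found leaves out cells below 1 FPKM, so it cannot be set against the pool.

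**Figure D4:**
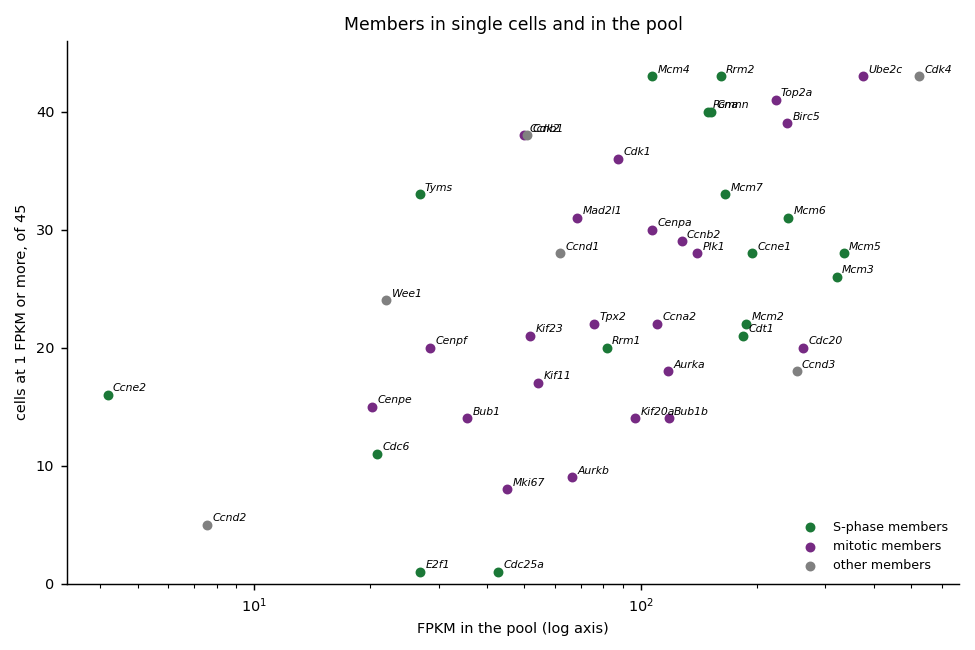
Number of cells, of 45, in which each member was at 1 FPKM or more, against its FPKM in the pool (log axis), 1 point per member. Cdk4, Mcm4, Rrm2 and Ube2c reach 43 cells, while E2f1 and Cdc25a are at 1 cell with 26.9 and 42.7 FPKM in the pool. At 20 FPKM or more in the pool, 5.74% of all genes were in at most 1 cell.

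Co-variation within S-phase and within mitotic genes was weak. It was taken over genes found in at least 25% of cells, 14 S-phase and 20 mitotic genes, as Spearman's rho over all 45 cells. The median over the 91 pairs of S-phase genes was 0.06, over the 190 pairs of mitotic genes 0.09 and over the 280 pairs between them 0.01, where it was 0.04 over all pairs of 3062 genes. A rho above 0.3 was reached by 6 S-phase pairs (6.59%), 17 mitotic pairs (8.95%) and 8 pairs between them (2.86%), and by 5.26% of the pairs of all genes. Mitotic pairs were above 0 in 74.2% of cases, S-phase pairs in 58.2%, pairs between the lists in 53.2% and all genes in 60.6%. All points share library depth and scaling. Within the first run of cells the medians were 0.004, 0.02 and -0.02 for S-phase, mitotic and between pairs, and within the second run 0.07, 0.06 and 0.01. In sparse values of this kind a weak correlation is a description of these cells only.

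The closest S-phase pairs were Gmnn with Rrm2 (rho 0.40), Mcm3 with Pcna (0.39), Cdt1 with Mcm3 and Mcm3 with Rrm2 (0.35 each) and Ccne1 with Mcm4 (0.31). Gmnn and Rrm2 were found together in 38 cells and gave 0.42 and 0.41 within the first and second run, and Mcm3 and Pcna gave 0.45 and 0.36, while Ccne1 and Mcm4 gave -0.14 and 0.40. Mcm3 had the highest median rho to the other S-phase genes (0.19), before Ccne2 (0.09), Mcm6 and Mcm7 (0.08 each), and Rrm1 (-0.08), Mcm2 (-0.06) and Cdt1 (-0.01) had the lowest. Genes of the same MCM complex did not form a block of their own, since Mcm2 with Mcm3 gave the lowest rho of all S-phase pairs (-0.33).

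Among mitotic genes the closest pairs were Cenpe with Tpx2 (rho 0.58), Plk1 with Tpx2 (0.53), Aurka with Ccna2 (0.50), Kif23 with Plk1 (0.49) and Cenpe with Kif23 (0.43). In that order both genes were found in 11, 17, 14, 15 and 9 cells and neither in 19, 12, 19, 11 and 18. Tpx2 is a spindle factor that activates Aurora A, and Kif23 is the kinesin of the midzone and cytokinesis. Within the runs Cenpe with Tpx2 gave 0.44 and 0.53 and Aurka with Ccna2 0.43 and 0.44. Plk1 with Tpx2 gave 0.35 and 0.48, and Kif23 with Plk1 0.25 and 0.47. As for the S-phase pairs, values within the runs come from the same cells by which the pairs were picked. Ccnb1 had the highest median rho to the other mitotic genes (0.17), then Tpx2 (0.17) and Cenpa (0.16), and Cenpf, Cdk1 and Bub1 the lowest (0.03, 0.04 and 0.04). Bub1 with Ube2c was the lowest pair (-0.39). The highest pair between the lists was Ccne1 with Bub1b (0.57, or 0.32 and 0.66 within the runs), and the lowest was Cdt1 with Kif23 (-0.37, or -0.50 and -0.43 within the runs). Cdt1 with Birc5 (-0.37) and Mcm3 with Ccnb1 (-0.37) were next.

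**Figure D5:**
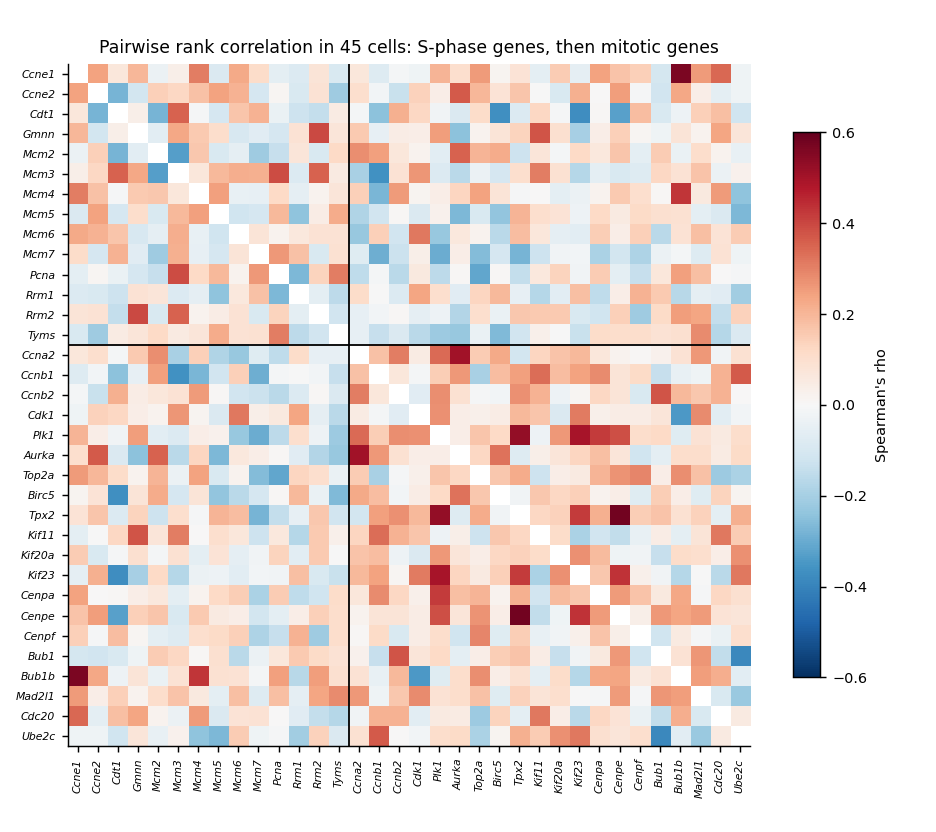
Spearman's rho over 45 cells for every pair of the 14 S-phase and 20 mitotic genes found in at least 25% of cells, with black lines between the lists and an empty diagonal. Single pairs such as Cenpe with Tpx2 (0.58), Plk1 with Tpx2 (0.53) and Ccne1 with Bub1b (0.57) stand out, and neither list forms an even block.

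Summed over the lists, the cells spread widely. The 17 S-phase genes summed to between 203 and 5374 FPKM per cell with a median of 1847, and the 22 mitotic genes to between 48.4 and 5009 FPKM with a median of 1897. Such sums lean on the genes with the highest values. By mean over cells these were Gmnn (481 FPKM), Mcm4 (394) and Rrm2 (268) for S phase. For mitosis they were Ube2c (382), Mad2l1 (228) and Birc5 (221). The S-phase sum was the larger in 24 cells and the mitotic sum in 21. The cell with the lowest S-phase sum (203 FPKM) had 3120 FPKM of mitotic genes, and the cell with the highest S-phase sum (5374 FPKM) had 495 FPKM of them. The cell with the lowest mitotic sum (48.4 FPKM) had 4165 FPKM of S-phase genes, and the cell with the highest mitotic sum (5009 FPKM) had 2131. The first of these cells had a relative depth of 0.228, so its values are the least precise. Over all cells the rank correlation of the sums was negative (rho -0.16), at -0.02 within the first run and -0.30 within the second. Pearson's r of the log2 sums was -0.32 over all cells, and -0.14 and -0.42 within the runs. The sums' rho with relative depth was 0.03 for S-phase and 0.16 for mitotic genes.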

How the data were processed

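Bulk RNA of 5 populations, 45 single cells, 1 pool and Tbx3 pull-down sites were used. The deposited bulk FPKM values were made with TopHat, Cufflinks and Cuffdiff and the single-cell FPKM values with TopHat and Cuffnorm, with mm9 as the build, per the submitters' processing notes. These tables were scaled separately and levels are not compared between them. FPKM is relative to a library's own total, and the sources used here do not state fragment depth. Sites carry the score that the authors deposited (Bowtie 1.0 and HOMER, per the submitters' processing notes). The table of sites holds the tagged pull-down only, and the BirA-only control was not analysed here.

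From the FPKM values log2((a + 1)/(b + 1)) was computed where the higher library was at 1 FPKM or above, with 2-fold as the call. This scale understates the change of low genes. Sites were placed against gene starts of the same build by their nearest edge, with pysam 0.24.0, pandas 2.3.3 and Python 3.11.15. Near-identical copies were found with minimap2 2.31-r1302. Calculations were tested on simulated data. The values simulated for rho were dense and of even depth, so they do not show what would be recovered in sparse cells.

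Members and lists were chosen with earlier results of these data known. Named members are the 5 highest and 5 lowest of each bulk comparison, those past 2-fold and those with a site. In the cells they are the 3 found most and least often (4 tied at the top), the 5 closest pairs per list and the 3 highest and lowest median rho. The 2 largest changes each way were named from each further list. Other members are named to account for their role. Promoter words, sums, between-list pairs and the runs of columns were examined after the values were seen.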

Additional observations from a re-analysis of the deposited data

How the results depend on the processing

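No paired analysis was possible because each bulk group is 1 library and the cells carry no replicate numbers. With 1.5-fold in place of 2-fold the members called were 2 in N/N over +/+, 1 in +/N over +/+, 5 in shTbx3 over shLuc and 11 in shLuc over +/+, which follows from the lower limit. The 5 calls of shLuc over +/+ became 3 with a pseudocount of 5 and 3 where both libraries had to reach 5 FPKM, which Ccnd2 and Ccne2 do not reach. Centring on the genes that reach 5 FPKM in both libraries turned the members' median to 0.086 in +/N over +/+ (from -0.03) and to -0.016 in shTbx3 over shLuc (from 0.14), since those genes were shifted by -0.12 and 0.16 there. Members with a site numbered 4 at 5 kb, 13 at 50 kb and 2 at scores of 100 or more. The other 91 alternatives of these summaries stayed within their limits, and for single genes 121 did and 29 moved. The limit was a change below 0.1 for a median, rho or log2 difference, and within 1.5-fold for a count. For rho this limit is wider than the medians themselves (0.06, 0.09 and 0.01), so staying within it says little there. A reversal was looked for only in the 5 calls of shLuc over +/+, the only members past 2-fold, and 0 were seen there. Over all alternatives the median rho of S-phase pairs lay between 0.004 and 0.09, that of mitotic pairs between 0.02 and 0.11 and that between lists between -0.02 and 0.01. Splitting the cells by run or depth, leaving out members with near-identical copies and the alternatives for the difference of S-phase and mitotic medians were added after seeing the data. With 1 library a group the spread between cultures is unknown and members found in few cells rest on few values.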
